A study of Homo sapiens with 20 samples.

Results

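The baseline examined here is that of MDA-MB-231 cells, a human line from breast cancer, as they stood with no nanoparticles and no laser light. The 4 libraries whose titles carry both of those terms make up this baseline, 4 of the 20 libraries of the series. All wells of the series held this line, with no genetic change given in the labels, seeded at 30000 cells per well of a 96-well plate and kept for 24 h at 37 °C and 5% CO2 in RPMI 1640 medium with 10% fetal bovine serum and 1% penicillin-streptomycin, and 2 wells were combined into each sample. The other 16 libraries, 4 with nanoparticles alone and 4 each with nanoparticles and a laser set to 46, 50 or 54 °C, serve here only to check single features. The labels do not say whether the 4 untreated samples were separate cultures, so every SD below is the spread between libraries, part or all of which may be technical. A well of 1 line grown alone on plastic in serum has no stroma, vessels or immune cells, which limits what its mRNAs say about a tumour.

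MDA-MB-231 was established from a pleural effusion of a patient with metastatic breast cancer and is widely used as a model of triple-negative disease, in which the estrogen receptor, the progesterone receptor and an amplified ERBB2 (HER2) are missing. Breast epithelium has an inner luminal layer, with simple keratins and hormone receptors, and an outer basal layer, with stratified keratins and matrix contacts. Cells that undergo an epithelial-to-mesenchymal transition lose junction proteins such as E-cadherin and gain a vimentin cytoskeleton under the control of ZEB, SNAI and TWIST factors.

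Libraries were made with a kit that starts at the poly(A) tail and so sequences only the 3' end of an mRNA. About 1 fragment comes from each mRNA molecule, so levels are given as CPM, the count divided by the library total and multiplied by 1000000, with no division by transcript length. Because the lengths of the transcripts used were not measured, the order of levels between genes was also computed as CPM per kb of the longest annotated transcript, and the first member was then the same in 25 of 31 gene lists. The exceptions that bear on a sentence below are named there. Throughout, 4 values in a row are the levels in untreated replicates 1, 2, 3 and 4 in that order, and a mean is given with its SD over the 4 libraries. A gene was called detected at 1 CPM or more in all 4 libraries.

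The 4 libraries held 4952111, 3241992, 2923266 and 2428489 counts, and 12623 to 13722 genes had a count in each. Log2 CPM of detected genes correlated across genes at 0.913 to 0.938 between pairs of libraries. A count of 0 in all 4 libraries allows a level of up to 0.221 CPM, and a count of 0 in 1 library allows 0.606 to 1.24 CPM, limits that cover counting error only. Replicate 4 stood apart from the other 3 in some mRNAs of vessel lining cells, among others. PECAM1, an adhesion protein of endothelial cells, was at 0, 0, 0 and 27.2 CPM. ERG, an endothelial transcription factor, was at 0, 0, 0 and 11.9 CPM and had 0 counts in the other 19 libraries of the series. A list of 32 endothelial genes written after these values were seen summed to 37.2, 15.7, 38.3 and 334 CPM, against 15.7 to 71.3 CPM in the other 19 libraries, and 13 of the 32 genes were above 5 CPM in replicate 4 and under 1 CPM in replicates 1 to 3. Because the list was written with these values known, its sum describes replicate 4 and does not test whether it differs. Of the 7 endothelial markers on the fixed list of other cell types, 3 had counts in replicate 4 (PECAM1, CDH5 at 9.06 CPM and TEK at 2.06 CPM) and 4 were at 0 there (VWF, EMCN, CLDN5 and KDR). In all, 86 genes, the 13 of that list included, were at 5 CPM or more in replicate 4 and under 1 CPM in the other 3. They held 1033 CPM, and replicates 1, 2 and 3 had 14, 14 and 38 such genes of their own. Genes named below whose level rests on replicate 4 are therefore given with all 4 values, several also with a mean without it, and the part that other cells play in them was not tested.

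**Figure D1:**
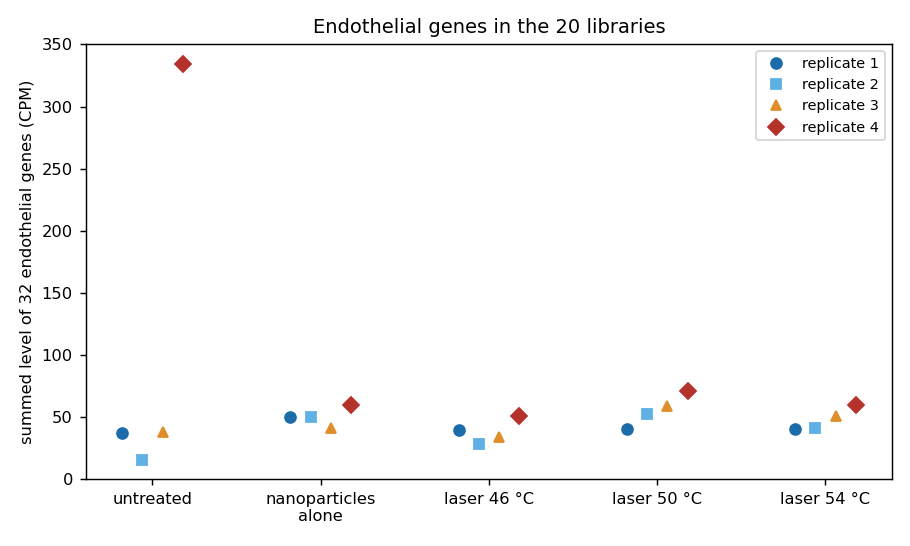
Summed level in CPM (vertical axis, linear from 0) of 32 endothelial genes in each of the 20 libraries, grouped by treatment along the horizontal axis, with a marker shape for each replicate number. Untreated replicate 4 sits at 334 CPM and the other 19 libraries between 15.7 and 71.3 CPM. The list of genes was written after the values of untreated replicate 4 were seen.

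Of the 36601 genes in the table, 10273 (28.1%) were detected, 5329 had counts but missed 1 CPM in at least 1 library, and 20999 (57.4%) had 0 counts in all 4 libraries. Among the 19351 protein-coding genes the shares were 51% detected and 32.5% at 0. These genes held 98.4% of the counts. Counts of detected members in the lists below are to be read beside these shares. The median detected gene stood at 28.5 CPM. Without replicate 4, 10547 genes were detected in the remaining 3 libraries and 21625 were at 0.

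The most abundant mRNAs came from the machinery for respiration and protein synthesis. The 13 mitochondrially encoded mRNAs summed to 11.1% of the counts and the 77 ribosomal protein mRNAs to 15.7%. A total of 374 genes held 50% of the counts, and 4367 genes held 90%. The 10 highest genes held 11% and the 100 highest 32.6%. The 25 highest genes were 10 mitochondrial, 10 ribosomal and 5 others. MT-ND3, a subunit of respiratory complex I, was first with 19748, 18897, 17061 and 13512 CPM. MT-ND2, a subunit of the same complex, followed with 14503, 17494, 20755 and 15469 CPM, and its range overlapped that of MT-ND3. MT-ND4 was at 18322, 16532, 14332 and 11328 CPM. MT-CO1, which carries the catalytic core of cytochrome c oxidase, was at 7148, 6768, 4618 and 3254 CPM, with replicates 1 and 2 above replicates 3 and 4. The mitochondrial share was 12.5%, 12.1%, 11.1% and 8.79% in replicates 1 to 4, lowest in replicate 4. Per kb of longest transcript, 15 of the 25 stayed among the 25 highest.

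**Figure D2:**
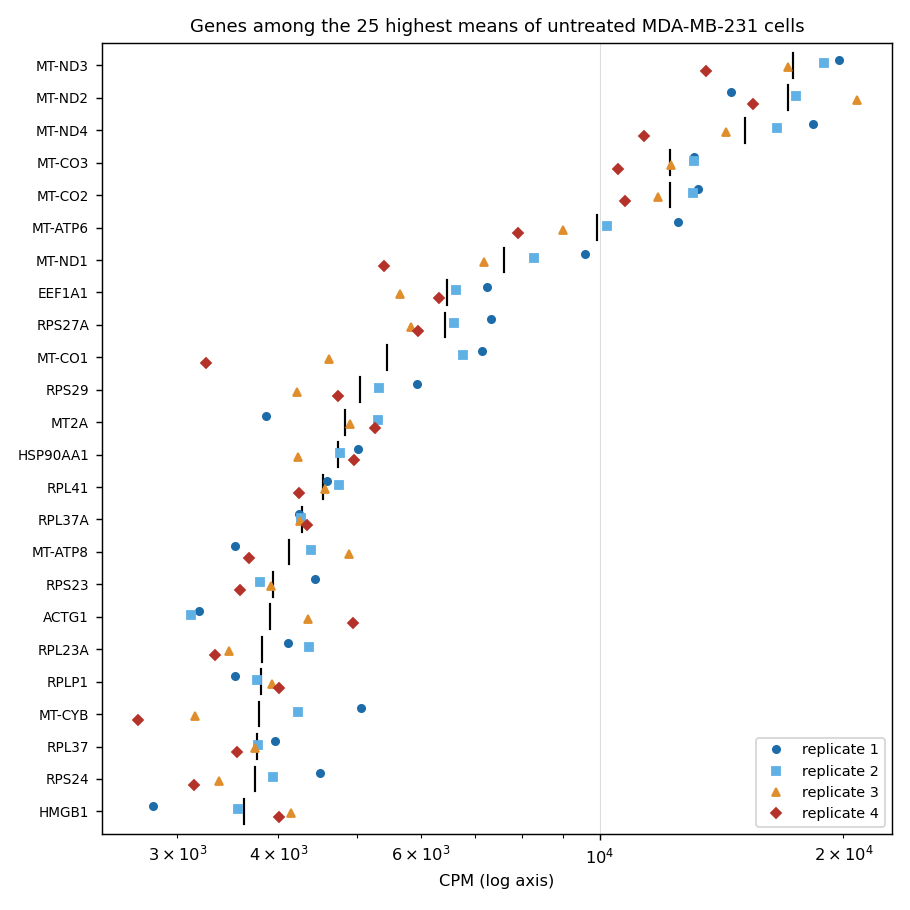
Levels in CPM (horizontal log axis) of genes among the 25 highest means, 1 row per gene, with a marker per untreated library and a bar at the mean. The highest rows are mitochondrial mRNAs such as MT-ND3 at 17305 CPM and the rows end with HMGB1 at 3629.7 CPM.

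Outside the mitochondrial and ribosomal groups, the first gene was EEF1A1, which carries aminoacyl-tRNA to the ribosome, at 7237, 6638, 5661 and 6320.0 CPM (mean 6464 ± 656 CPM). MT2A, a metallothionein that binds zinc and copper, was at 3857, 5310.0, 4904 and 5269 CPM. HSP90AA1, a cytosolic chaperone, was at 5011, 4763, 4224 and 4955 CPM with no heat applied. ACTG1, cytoplasmic gamma-actin, was at 3189, 3121, 4346 and 4953 CPM, higher in replicates 3 and 4 than in replicates 1 and 2. HMGB1, a chromatin protein, was at 2799, 3567, 4142 and 4011 CPM. The next genes in order were S100A6 (3336 ± 356 CPM), MTRNR2L8 (2817 ± 517 CPM), HSP90AB1 (2589 ± 408 CPM), TUBA1B (2504 ± 287 CPM), FAU (2435 ± 389 CPM), PPIA (2383 ± 402 CPM), TUBB (2213 ± 79.6 CPM), ENO1 (2152 ± 63.2 CPM), SET (2152 ± 249 CPM) and MALAT1 (2145 ± 857 CPM). MTRNR2L8 is a nuclear gene whose sequence resembles mitochondrial 16S rRNA, so its counts are uncertain. MALAT1, a nuclear long noncoding RNA, was at 1183, 1696, 2646 and 3053 CPM, lowest in replicate 1 and highest in replicate 4.

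Ribosomal protein mRNAs and EEF1A1 are known for a 5' terminal oligopyrimidine (TOP) tract, a C at the first base followed by a run of C and T, through which growth signals set their translation. The tract was searched in RefSeq windows of GRCh38.p14 that run from 250 bases before to 50 bases after an annotated start and that matched 17577 genes of the table by symbol. The search asked, on the gene's strand, for C at the first transcribed base and C or T at each of the next 4. It was met by 42 of 62 matched ribosomal protein genes (67.7%), by 438 of 8180 other detected genes (5.35%), by 202 of 6532 genes at 0 counts (3.09%) and by 4.04% of all 27305 windows. Some genes of the group are not shown. The windows below are of abundant mRNAs, each running from 14 bases before the annotated start to 16 bases from it, with the pyrimidine run from the first transcribed base in capitals.
EEF1A1: tcgccgtgaacgttCTTTTTCgcaacgggt
RPL37A: caccgcgtctcttcCTTTCTgggctcggac
RPS23: cctgcggtgcttctCTCTTTCgctcaggcc
RPLP1: tataggcgcgagagCCCCTTTCCTCagctg
RPS24: ggcgaatcgtggttCTCTTTTCCTCCTTgg
RPL7A: cacaattccctttcCTTTCTCTCTCCTCCC
RPS27A: aaggagtgacacacaagacccagactcttc
EEF1A1 has 7 pyrimidines (chr6:73521017-73521046, minus strand), RPL37A 6 (chr2:216498830-216498859, plus strand), RPS24 14 (chr10:78033849-78033878, plus strand) and RPL7A 16 (chr9:133348204-133348233, plus strand). RPS23 has 7 (chr5:82278339-82278368, minus strand) and RPLP1 11 (chr15:69452804-69452833, plus strand). RPS27A, which makes a ubiquitin fused to a ribosomal protein, has no such run at the annotated start searched (chr2:55231889-55231918, plus strand). It was at 7326, 6594, 5841 and 5956 CPM, so a gene without these letters at the start searched was among the 25 highest. RPL37A varied least of the genes shown, with 4238, 4267, 4251 and 4338 CPM, a mean of 4274 ± 44.6 CPM. An annotated start can lie a few bases from the one a cell uses, and a match is a description of the letters only.

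The windows also differed by level class in CpG content. The median window held 27 CpG dinucleotides in detected genes that are not ribosomal, 21 in genes between the classes and 5 in genes at 0 counts, and the median GC share was 65.7%, 63% and 52.7%. TATAAA between 40 and 15 bases before the start, on the gene's strand, was in 1.44% of the detected non-ribosomal genes and in 5.54% of the genes at 0 counts. MT2A, at 4835 CPM, was among the abundant genes that carry it. Its 50 bases before the start (chr16:56608534-56608583, plus strand) are shown with TATAAA in capitals.
MT2A: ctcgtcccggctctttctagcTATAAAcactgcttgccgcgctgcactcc

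Nearly all listed structural and metabolic housekeeping genes were detected. All 17 listed cytoskeleton genes, all 8 translation factors and all 15 measured genes of iron storage and redox defence were detected, as were 17 of 19 glycolytic genes. ACTB, beta-actin, was at 1331, 1319.9, 1373 and 1348 CPM (mean 1343 ± 23.4 CPM). GAPDH, a glycolytic dehydrogenase, was at 1476, 1436, 1483 and 1515 CPM. ENO1, the glycolytic enolase, was at 2151, 2221, 2069 and 2168 CPM, above the muscle form ENO3 at 0.944 CPM and the neuronal form ENO2 at 43.6 ± 12.2 CPM. FTH1 and FTL, the subunits of the iron store ferritin, had means of 2053 ± 175 and 1568 ± 118 CPM. HK2, the inducible hexokinase, was at 23.8, 12, 53.4 and 73.7 CPM, lowest in replicate 2 and highest in replicate 4. PRDX1, a peroxide scavenger, was at 909.7, 832, 501 and 468 CPM, and here replicates 1 and 2 were the higher pair.

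Of the 5 marker genes, VIM and CD44 were high, ERBB2 and EPCAM were low and ESR1 was at 0. No other line was measured, so these levels describe the cells and cannot check the label of the line. VIM, the mesenchymal intermediate filament vimentin (chr10:17228259-17237593, GRCh38), was at 1312, 1481, 1659 and 1730.3 CPM, a mean of 1545 ± 188 CPM. CD44, a hyaluronan receptor of migratory and stem-like breast cells (chr11:35138870-35232402), was at 779, 722, 563 and 615 CPM, a mean of 669.6 ± 98.3 CPM. ESR1, estrogen receptor alpha (chr6:151656691-152129619), had 0 counts in all 4 libraries. ERBB2 (chr17:39687914-39730426) was at 10.1, 5.86, 3.76 and 12.8 CPM (mean 8.12 ± 4.07 CPM), under the median detected gene in every library. EPCAM, an epithelial adhesion protein (chr2:47345158-47387601), was at 1.62, 5.86, 10.6 and 15.6 CPM (mean 8.43 ± 6.05 CPM, 6.03 ± 4.5 CPM without replicate 4). The ranges of EPCAM and ERBB2 overlapped, and both lay below all values of CD44, which lay below all values of VIM. Per kb of longest transcript the means were 580 for VIM, 117 for CD44, 4.89 for EPCAM and 1.65 for ERBB2, in the same order. In bulk RNA, fewer cells with an mRNA and less of it in each cell cannot be told apart, so a low EPCAM level may be either.

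The mesenchymal structure list had 12 of 18 members detected (66.7%, beside 51% of protein-coding genes), 4 between the classes and 2 at 0. The median of this list was 69.6 CPM. S100A6, a calcium-binding protein of motile cells, led it with 3195, 2897, 3638 and 3614 CPM. LGALS1, galectin-1, was at 1606, 1646, 1304 and 1537 CPM, and its range overlapped that of VIM. AXL, a receptor tyrosine kinase of mesenchymal tumour cells, was at 373, 362, 634 and 652 CPM, with replicates 3 and 4 above replicates 1 and 2. CALD1, an actin-binding caldesmon, was at 284, 304, 383 and 431 CPM. NT5E, the adenosine-producing ecto-enzyme CD73, was at 149, 191, 221 and 201 CPM. MYL9 (122 ± 21.5 CPM), TPM1 (89 ± 15.6 CPM), S100A4 (50.3 ± 8.5 CPM), CDH11 (17.9 ± 3.24 CPM) and TAGLN (10.6 ± 7.09 CPM) were the other detected members. THY1 and CNN1 were at 0. N-cadherin, CDH2, the textbook partner of lost E-cadherin, was at 0, 0, 0.342 and 21.8 CPM, so that replicate 4 held nearly all of it, and ENG was at 0.202, 0, 0 and 27.2 CPM. Leaving out replicate 4 put CDH2 at 0.114 ± 0.198 CPM and ENG at 0.0673 ± 0.117 CPM.

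Of the 12 listed transcription factors of the mesenchymal state, 8 were detected (66.7%, beside 51% of protein-coding genes), 1 lay between and 3 were at 0. FOSL1, an AP-1 subunit downstream of RAS signalling, was at 114, 122, 237 and 231 CPM, and replicates 3 and 4 were the higher pair. ZEB1, a repressor of E-cadherin, was at 31.7, 64.2, 60.2 and 78.6 CPM. SNAI2 was at 3.03, 22.2, 17.4 and 18.1 CPM, low in replicate 1. ZEB2 was at 5.25, 7.4, 17.4 and 4.12 CPM and SNAI1 at 3.43, 6.48, 5.47 and 12.8 CPM. YAP1 (51.6 ± 9.77 CPM), WWTR1 (39.9 ± 11 CPM) and TEAD4 (8.74 ± 4.73 CPM), of the Hippo pathway that reads cell contact and stiffness, were detected too. TWIST1, TWIST2 and PRRX1, which drive the transition in other cells, had 0 counts. FOXC2 was at 0, 0.925, 0 and 9.47 CPM, nearly all in replicate 4, and its mean without that library was 0.308 ± 0.534 CPM.

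The luminal epithelial list had 12 of 25 members detected (48%, beside 51% of protein-coding genes), 8 between and 5 at 0. Keratins, a desmosome gene and tight junction genes were among the detected ones. KRT7 was at 292, 259, 355 and 382 CPM, the first of the list. KRT18 was at 257, 231, 216 and 294 CPM and its partner KRT8 at 134, 128, 74.2 and 84.8 CPM, both simple-epithelium keratins. KRT19 was at 99.8, 101, 51.3 and 55.2 CPM, with replicates 1 and 2 the higher pair. DSP, desmoplakin of the desmosome, was at 60.2, 113, 179.6 and 174 CPM, and here replicate 1 was lowest. CLDN4, a tight junction protein, was at 73.9, 83.9, 103 and 102 CPM. TJP1 (51.5 ± 10.7 CPM), OCLN (12 ± 5.77 CPM), CLDN7 (8.85 ± 4.13 CPM) and MUC1 (4.44 ± 3.03 CPM) were also detected.

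CDH1, E-cadherin (chr16:68737225-68835548), was at 0, 0, 3.08 and 0 CPM, which is 9 counts in replicate 3 and none in the other 3 libraries. CLDN3 had a mean of 0.795 ± 1.33 CPM and CD24, a surface protein of luminal cells, one of 1.22 ± 1.5 CPM. ESRP1, which splices epithelial isoforms, was at 0, and ESRP2 was at 2.22 ± 1.72 CPM. GRHL2, OVOL1 and OVOL2, transcription factors that hold the epithelial state, and CRB3, a polarity protein, were at 0. The claudin list had 4 of 21 members detected (19%) and 12 at 0 (57.1%). The cadherin list had 2 of 21 detected (9.52%) and 12 at 0 (57.1%). Beside these stand 51% detected and 32.5% at 0 of protein-coding genes, and 28.1% and 57.4% of the whole table. The 2 detected cadherins were CDH4 at 53.3, 47.5, 71.2 and 90.6 CPM and CDH11 at 18.8, 19.1, 20.5 and 13.2 CPM. CDH4 was above CDH11 in every library.

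The basal list had 10 of 20 members detected (50%), 2 between and 8 at 0 (40%), beside 51% and 32.5% of protein-coding genes. CAV1, caveolin-1, led it at 612, 536, 386 and 475 CPM. EGFR, the epidermal growth factor receptor, was at 134, 155, 256 and 259 CPM, and replicates 3 and 4 did not overlap with replicates 1 and 2. ITGA6 was at 147, 146, 198 and 240.1 CPM and LAMB3, a laminin-332 chain of the basement membrane, at 138, 114, 186 and 166 CPM. FOXC1, a transcription factor of basal-like tumours, was at 55.3, 66, 71.8 and 59.3 CPM. CAV2 (73.4 ± 7.9 CPM), SOX9 (58 ± 15.9 CPM), ITGB4 (14.3 ± 4.62 CPM) and LAMA3 (4.02 ± 0.783 CPM) were also detected. The stratified keratins KRT5, KRT14, KRT17, KRT6A and KRT6B were at 0, as were TP63, SOX10 and CRYAB. Basal keratins were thus at 0 counts while KRT7 and KRT18 were at 216 CPM or more in every library.

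**Figure D3:**
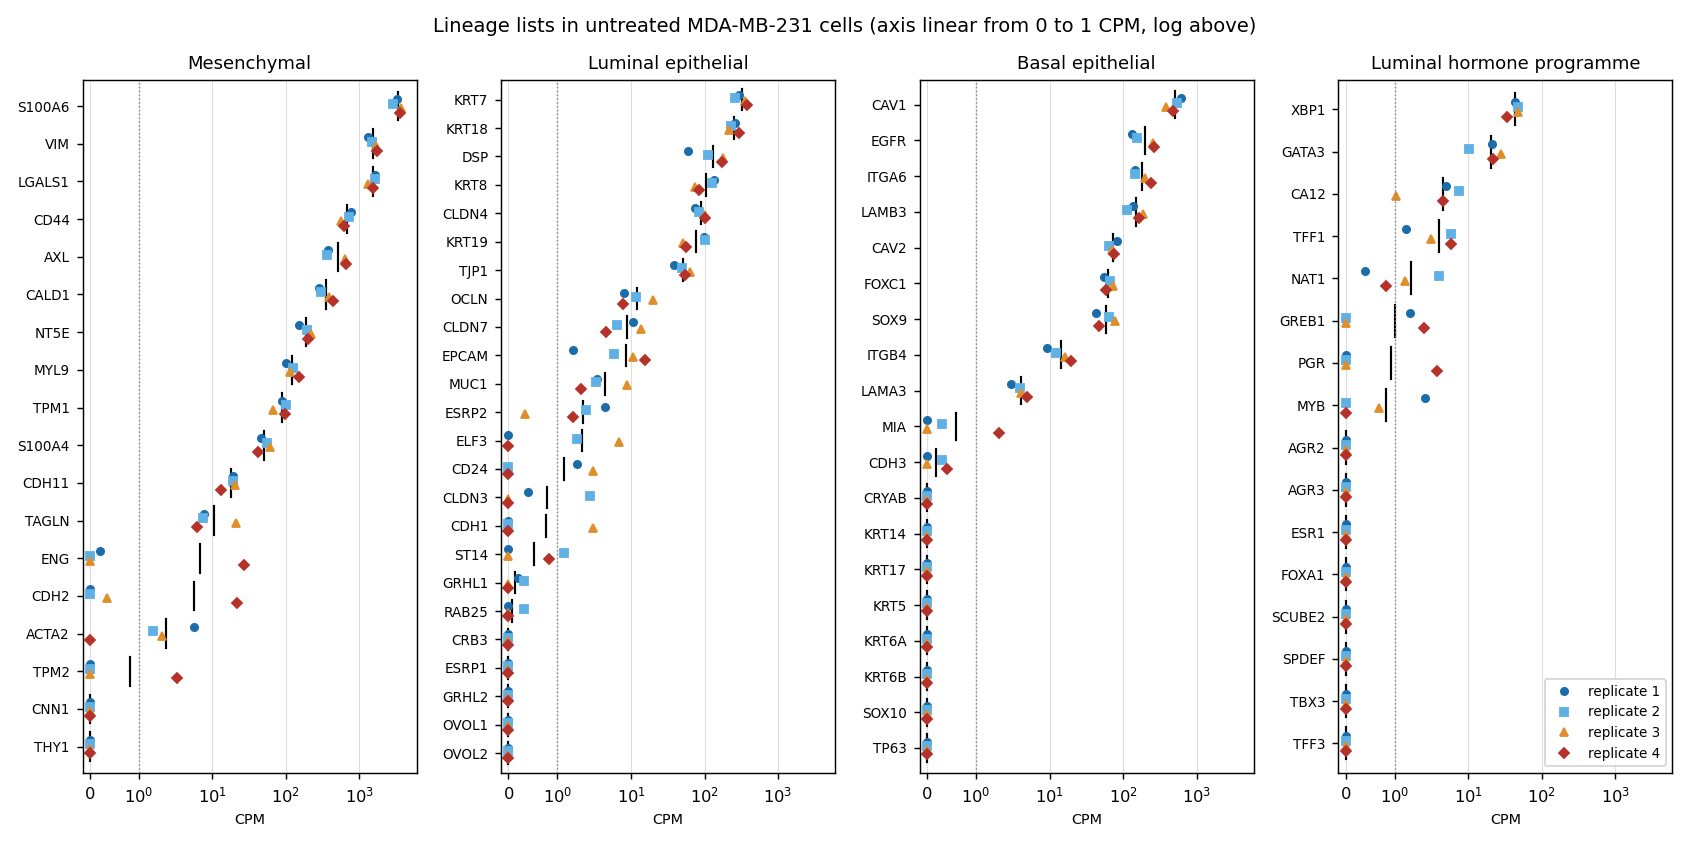
Levels in CPM (horizontal axis, linear from 0 to 1 and log above, dotted line at 1 CPM) of members of the mesenchymal, luminal epithelial, basal epithelial and luminal hormone lists, 1 row per gene ordered by mean, with a marker per untreated library and a bar at the mean. VIM and S100A6 lie above 1000 CPM, KRT7 and KRT18 between 216 and 382 CPM, and KRT5, KRT14, TP63, FOXA1 and ESR1 at 0.

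The luminal hormone programme had 4 of 16 members detected (25%), 4 between and 8 at 0 (50%), beside 51% and 32.5% of protein-coding genes. XBP1, which also serves the unfolded protein response, was at 42.8, 47.2, 46.9 and 34.2 CPM. GATA3, a luminal transcription factor, was at 21.4, 10.2, 28.1 and 21.4 CPM. CA12 and TFF1 had means of 4.5 ± 2.63 and 4.03 ± 2.17 CPM. FOXA1, which opens chromatin for estrogen receptor, was at 0 with ESR1, TFF3, AGR2, AGR3, SPDEF, SCUBE2 and TBX3. PGR, the progesterone receptor, was at 0, 0, 0 and 3.71 CPM, all of it in replicate 4.

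Nuclear receptors are transcription factors switched by steroids, vitamins, lipids or, for orphans, no known ligand. Of 29 listed, 17 were detected (58.6%, beside 51% of protein-coding genes), 7 lay between and 5 were at 0 (ESR1, ESR2, ESRRB, ESRRG and RXRG). NR2F2, the orphan receptor COUP-TFII (chr15:96325938-96340263), was highest at 316, 313, 459 and 525 CPM. NR3C1, the glucocorticoid receptor, was second by CPM at 239, 248, 166 and 175 CPM. ESRRA, an orphan regulator of mitochondrial genes, came next at 69.9, 63.8, 57.8 and 70 CPM. The ranges of these 3 did not overlap with each other. From ESRRA down, each neighbour in the order RXRA, THRA, NR2F6, RXRB, NR1H2, VDR, RARA, NR2F1, PPARA, PPARD, PPARG, RARG and NR1H3 overlapped the next, with means from 42.3 ± 12.2 to 5.92 ± 2.93 CPM. NR3C2, the mineralocorticoid receptor, was lowest of the detected ones at 2.22, 2.16, 2.39 and 1.24 CPM. Among the listed steroid receptors, the glucocorticoid receptor was thus the highest in every library.

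Receptor tyrosine kinases pass growth factor signals to the RAS cascade. Of 33 listed, 15 were detected (45.5%, beside 51% of protein-coding genes), 10 lay between and 8 were at 0. By CPM, AXL and then EGFR were highest, and all 4 values of AXL were above the highest value of EGFR. EPHA2, an ephrin receptor, was at 77.3, 79.9, 81.1 and 120.2 CPM, highest in replicate 4 and below every EGFR value, with a mean of 79.4 ± 1.91 CPM without replicate 4. MET, the receptor of hepatocyte growth factor, was at 63.6, 82.4, 70.1 and 86.1 CPM, and FGFR1 at 61.8, 54, 75.6 and 67.1 CPM. From EPHA2 down, neighbouring members overlapped in their ranges. ROR1 (45.8 ± 8.84 CPM), PTK7 (40.3 ± 10.3 CPM), DDR1 (37.1 ± 8.05 CPM), RYK (35.1 ± 4.69 CPM), EPHB2 (33 ± 9.08 CPM), EPHB4 (30 ± 8.35 CPM), INSR (22.7 ± 8.48 CPM), IGF1R (22.1 ± 6.82 CPM), TYRO3 (13.2 ± 4.2 CPM) and ERBB2 filled the lower part. ERBB3 had 3 counts, all in replicate 1, and ERBB4 had 0. KIT, PDGFRA, FLT1, FLT4, ROR2 and RET were at 0 too.

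**Figure D4:**
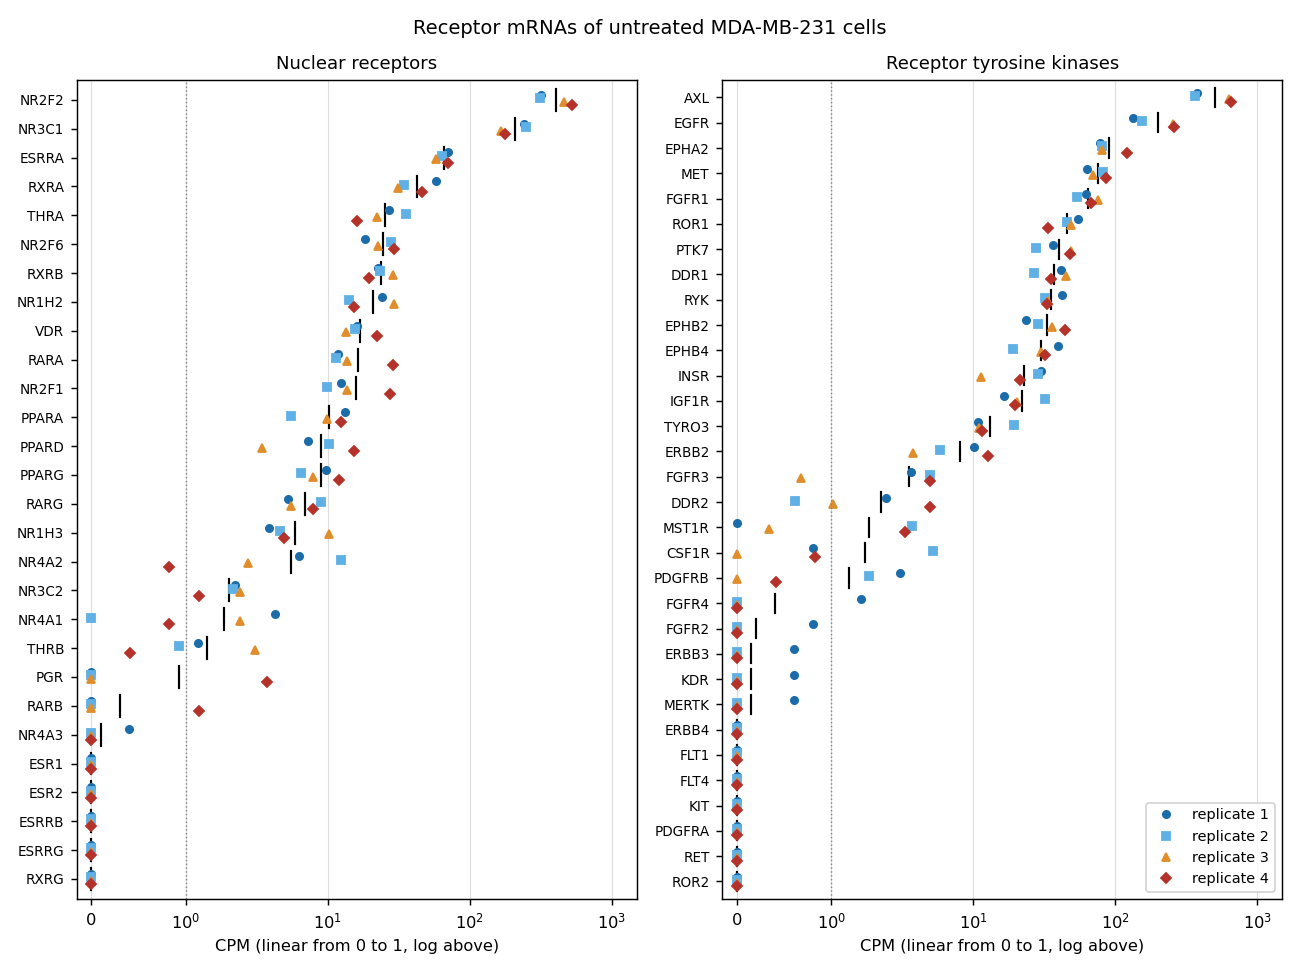
Levels in CPM (horizontal axis, linear from 0 to 1 and log above, dotted line at 1 CPM) of nuclear receptors (left) and receptor tyrosine kinases (right), 1 row per gene, with a marker per untreated library and a bar at the mean. NR2F2 and NR3C1 on the left and AXL and EGFR on the right stand above the rows beneath them.

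The RAS cascade and cell cycle list had 20 of 23 members detected (87%, beside 51% of protein-coding genes), 1 between and 2 at 0. CCND1, cyclin D1, was at 264, 291, 563 and 595 CPM, and replicates 3 and 4 were the higher pair. CDK4, its kinase, was at 166, 185, 192 and 182 CPM, and CDK6 had a mean of 149 ± 26.6 CPM. NRAS was at 141, 107, 80 and 60.5 CPM and HRAS at 84.4, 71.3, 82.1 and 75.8 CPM. BRAF was at 15.1, 12.3, 11.3 and 11.1 CPM, below ARAF (32.6 ± 7.73 CPM). MYC, named in the title of the series, was at 18.2, 18.8, 10.9 and 30.9 CPM, below the median detected gene as a mean. CDKN1A (65.5 ± 18.3 CPM), RB1 (40.9 ± 8.15 CPM) and NF1 (11.2 ± 6.05 CPM) were detected, and NF2 was at 3.63, 1.23, 4.11 and 15.6 CPM, 2.99 ± 1.54 CPM without replicate 4.

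The 2 members at 0 were neighbours on chromosome 9. CDKN2A, which encodes the cell cycle inhibitors p16 and ARF (chr9:21967753-21995301), had 0 counts in the untreated libraries and in all 20. CDKN2B (chr9:22002903-22009363) and MTAP, a methionine salvage enzyme (chr9:21802543-21937651), were also at 0 in all 20. This stretch is a frequent site of loss in cancer. DNA was not measured here. Of the 38 genes from MLLT3 to ELAVL2, 32 were at 0 in untreated cells and 31 in all 20 libraries, beside 57.4% of the whole table in untreated cells, and many of them are interferon genes that are silent in most resting cells. The unbroken run around CDKN2A covered 12 genes, from IFNA6 to CDKN2A itself. Without replicate 4, an alternative added after the data were seen, 35 of the 38 genes were at 0 and the run covered 24 genes, from HACD4 to CDKN2A. CDKN2B-AS1, a long noncoding RNA that overlaps the start of CDKN2A and all of CDKN2B on the other strand (chr9:21994778-22121097), was detected with 186 counts, 888 in the 20 libraries. Because the strand setting of the counting is not given in the sources used here, its counts rest on the authors' assignment. MLLT3, at the near end, was at 9.29, 6.48, 6.5 and 2.06 CPM. DMRTA1 and KLHL9, which lie within this stretch, had 9 and 2 counts, all of them in replicate 4 and none in the other 19 libraries.

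Genes called secreted factors here were fixed in 4 lists of cytokines, growth factors, proteases with their inhibitors, and matrix. The lists also hold membrane proteins such as PLAUR and MMP14, so shares over them are not of secreted proteins alone. In the 4 lists together, 90 of 137 genes were detected (65.7%, beside 51% of protein-coding genes), 25 lay between and 22 were at 0. The 137 genes summed to 1.01% of the counts. Cytokines and chemokines, the messengers of inflammation, had 15 of 26 detected (57.7%). MIF, macrophage migration inhibitory factor, was at 521, 453, 491 and 459 CPM. IL11, a cytokine of the IL6 family linked to bone metastasis (chr19:55364389-55370463), was at 436, 429, 137 and 156 CPM. IL32 was at 88.9, 143, 158 and 114 CPM, CXCL8, the neutrophil chemokine IL-8, at 89.5, 75.6, 58.8 and 53.1 CPM, and IL24 at 45.2, 26.5, 85.5 and 84.4 CPM. IL6 was at 83.2, 68.8, 32.2 and 24.7 CPM. The values of IL11 and IL6 were higher in replicates 1 and 2, and those of IL24 in replicates 3 and 4. TNFSF10 (45.3 ± 11.5 CPM), CXCL1 (40.2 ± 8.99 CPM), CSF1 (34.4 ± 4.23 CPM), IL1B (15.1 ± 2.4 CPM), LIF (14 ± 2.82 CPM), CSF3 (8.68 ± 6.37 CPM), IL1A (7.98 ± 4.53 CPM), CXCL2 (7.69 ± 3.46 CPM) and CXCL3 (6.7 ± 3.68 CPM) were detected at lower levels. CCL2 had 1 count in all, and TNF, CXCL5, CXCL12, CX3CL1 and TSLP were at 0.

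Growth factors and their antagonists had 33 of 46 members detected (71.7%, beside 51% of protein-coding genes). CCN1, a matricellular target of YAP, was at 501, 409.9, 631 and 555 CPM, and IGFBP7, which binds insulin-like growth factors, was at 419, 397, 401 and 511 CPM. Per kb of longest transcript IGFBP7 (303) came before CCN1 (229). BMP4 was at 345, 276, 185 and 196 CPM, and replicates 1 and 2 were the higher pair. IGFBP4 (254 ± 24.7 CPM), STC1 (239.7 ± 48.9 CPM), DKK1 (217 ± 26.3 CPM), INHBA (188 ± 21.3 CPM) and AREG (172 ± 32.8 CPM) followed. FST, which traps activin, was at 196, 226, 96.5 and 103 CPM. TGFB2 was at 170.4, 147, 130.3 and 109.9 CPM and TGFB1, its better known relative, at 6.26, 13.3, 4.79 and 4.12 CPM, lower in every library. CCN2 (134 ± 28.6 CPM), GRN (102 ± 27.3 CPM), VEGFA (96.9 ± 8.61 CPM), FSTL1 (94.5 ± 32.4 CPM), HBEGF (81.1 ± 16.7 CPM), PDGFC (77.9 ± 5.1 CPM), EREG (61.3 ± 26.8 CPM) and NRG1 (45.5 ± 9.77 CPM) were next. HGF, the ligand of MET, IGF1, the ligand of IGF1R, PDGFB, BMP2 and BMP7 were at 0. EDN1, endothelin-1, was at 4.64, 5.55, 10.3 and 70 CPM, and its mean without replicate 4 was 6.82 ± 3.02 CPM.

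Proteases and inhibitors had 23 of 33 members detected (69.7%, beside 51% of protein-coding genes). PLAUR, the urokinase receptor, was at 186, 155, 294 and 266 CPM. PLAU, urokinase itself, was at 162, 180.1, 122 and 122 CPM, and PLAT, the tissue-type activator, at 46.2 ± 10.3 CPM. TIMP1, an inhibitor of matrix metalloproteinases, was at 359, 339, 479 and 432 CPM. CTSD (327 ± 84.2 CPM), TIMP2 (232 ± 35.8 CPM), TFPI2 (174 ± 12 CPM), CTSB (157 ± 25.5 CPM) and TFPI (133 ± 25 CPM) followed. TIMP3 was at 35.7, 46.3, 85.9 and 188 CPM, 56 ± 26.4 CPM without replicate 4. MMP14, the membrane-anchored collagenase, was at 63.2, 53.4, 68.1 and 64.2 CPM, and MMP1, interstitial collagenase, at 9.09, 13.9, 5.47 and 22.6 CPM. MMP9 had 3 counts, all in replicate 1, MMP2 was at 0, 0, 0 and 5.35 CPM, and MMP7, MMP10 and MMP13 were at 0. The inhibitors TIMP1, TIMP2 and TIMP3 thus stood above the secreted enzymes MMP1, MMP2 and MMP9 in every library.

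The matrix list had 19 of 32 members detected (59.4%), 5 between and 8 at 0 (25%), beside 51% and 32.5% of protein-coding genes. THBS1, thrombospondin-1 (chr15:39581079-39599466), was at 990.3, 1105, 1053 and 1025 CPM, with a coefficient of variation of 4.65%. LOXL2, a collagen cross-linking enzyme, was at 109.9, 117, 235 and 270.1 CPM and TGFBI at 106, 169, 196 and 231 CPM, both highest in replicate 4. LAMC1 was at 54.9, 62, 135 and 143 CPM and LAMB1 at 57.8, 67.9, 120.1 and 140.0 CPM. Their values in replicates 3 and 4 were above those in replicates 1 and 2. FN1, fibronectin, was at 80.4, 75.3, 116 and 101 CPM. COL4A2 (91.8 ± 17.4 CPM), COL5A1 (88.9 ± 9.55 CPM), COL13A1 (71.5 ± 14 CPM), COL6A1 (51 ± 10.5 CPM) and COL4A1 (37.1 ± 9.03 CPM) were the collagens above the median detected gene. COL1A1, the main collagen chain of fibroblasts, was at 6.66, 4.63, 2.74 and 6.18 CPM, and COL1A2, COL3A1, LUM, DCN, BGN, POSTN, THBS2 and NID1 were at 0. SPARC was at 0, 0, 0 and 16.5 CPM, all in replicate 4.

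Of 50 secreted factors with a mean of at least 50 CPM, 12 (24%) had replicates 1 and 2 on one side of replicates 3 and 4 with a ratio of pair means of 1.5 or more, beside 423 of 3408 genes at that level (12.4%). This pairing was noticed after the values were seen and the labels give no batch. Other ways of pairing the libraries were not counted, so these shares do not show that this split is the more frequent one. Log2 CPM correlated at 0.938 between replicates 1 and 2 and at 0.918 between replicates 3 and 4. Across these pairs the correlation was 0.913 to 0.920. Among them, PLAUR, LOXL2, TGFBI, LAMC1, LAMB1, TIMP3 and IL24 were higher in replicates 3 and 4. LOXL2 was 2.23 times higher there by pair means and LAMC1 2.38 times. IL11, BMP4, FST and IL6 were higher in replicates 1 and 2, IL11 by 2.95 times and IL6 by 2.67 times. Over all genes at that level, 287 of the 423 genes were higher in replicates 3 and 4 and 136 in replicates 1 and 2. Outside the lists, AKAP12 was at 57.6, 89.8, 239 and 237 CPM and ASNS, asparagine synthetase, at 52.5, 56.1, 181 and 159 CPM, both picked after their values were seen.

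**Figure D5:**
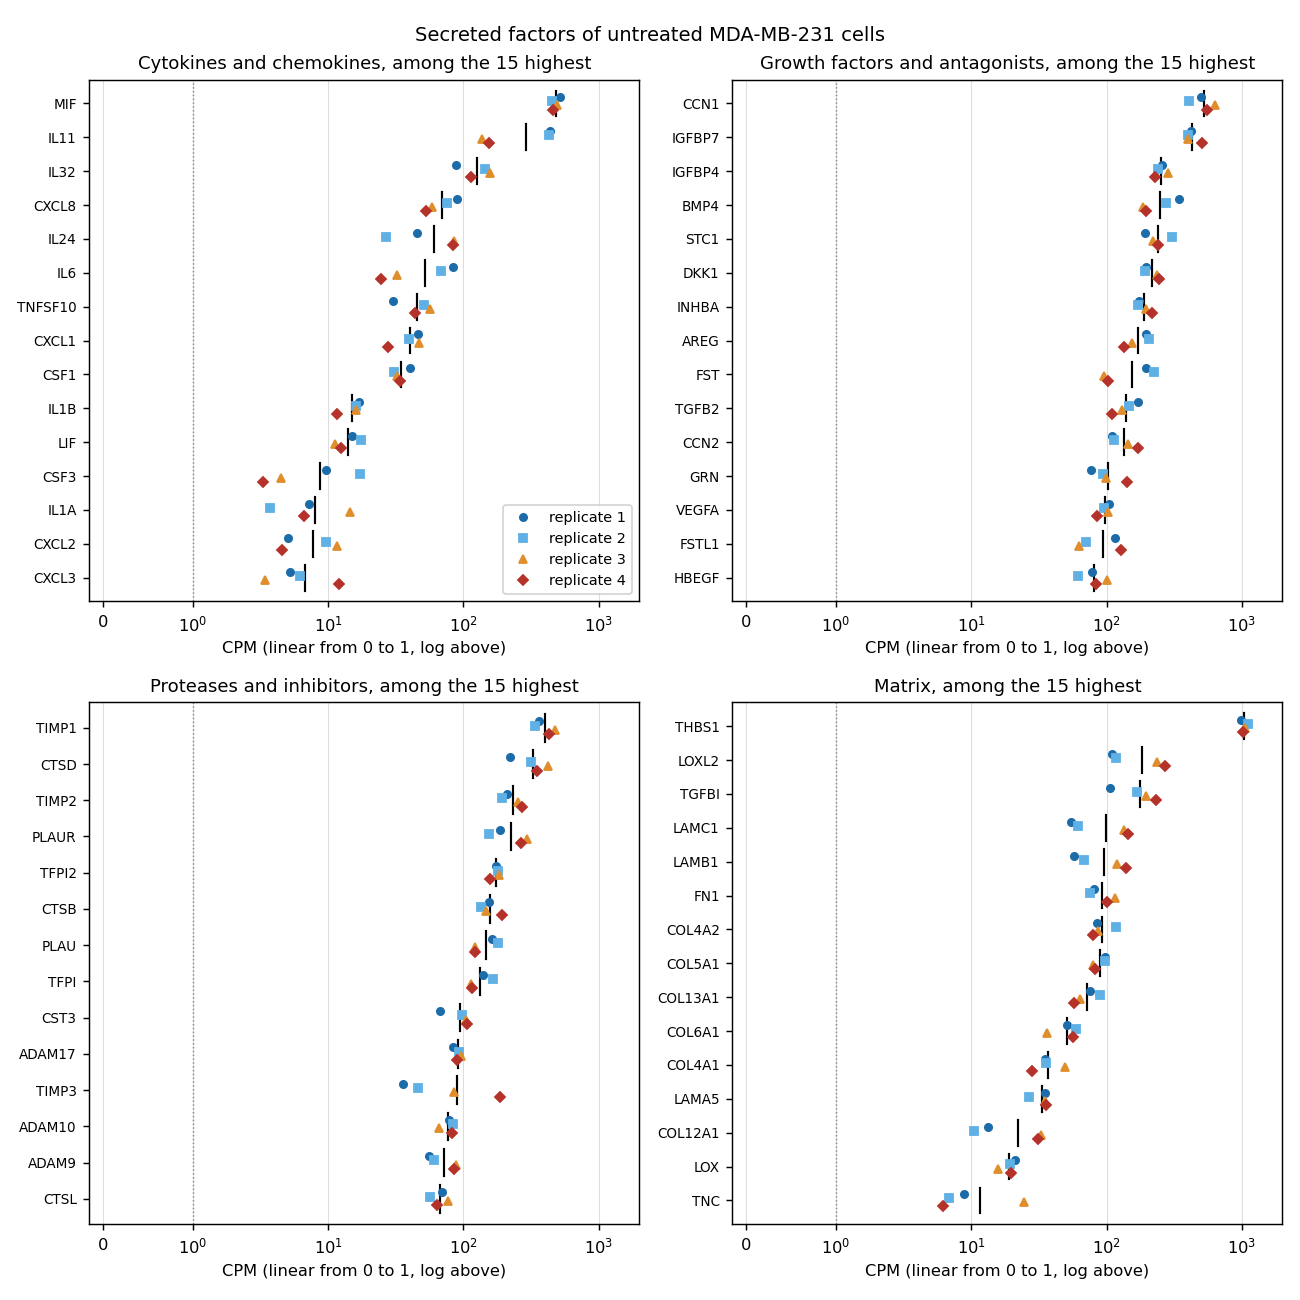
Levels in CPM (horizontal axis, linear from 0 to 1 and log above, dotted line at 1 CPM) of members among the 15 highest of each of 4 lists of secreted factors, 1 row per gene, with a marker per untreated library and a bar at the mean. THBS1 and MIF have markers close together, while IL11, IL6 and FST have replicates 1 and 2 to the right and LOXL2 and LAMC1 have replicates 3 and 4 to the right.

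TATAAA between 40 and 15 bases before the annotated start, searched on the gene's strand, was in 12 of 68 detected secreted factors with a window (17.6%), beside 1.44% of detected genes outside the ribosomal set and 2.55% of all 27305 windows. The 12 genes were IGFBP4, DKK1, AREG, TGFB2, CCN2, CXCL8, EREG, TNFSF10, ANGPTL4, GDF15, COL6A2 and SERPINB2. The search range itself limits where the element can lie. The 50 bases before the start of 5 of the more abundant ones follow, with TATAAA in capitals.
IGFBP4: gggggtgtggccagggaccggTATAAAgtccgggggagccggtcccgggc
DKK1: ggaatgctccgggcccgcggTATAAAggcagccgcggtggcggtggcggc
AREG: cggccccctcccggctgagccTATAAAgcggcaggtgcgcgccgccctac
TGFB2: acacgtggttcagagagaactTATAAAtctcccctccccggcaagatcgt
CXCL8: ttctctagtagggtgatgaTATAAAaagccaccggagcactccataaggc
The T of TATAAA lies 29 bases before the start in IGFBP4 (chr17:40443400-40443449), 30 in DKK1 (chr10:52314231-52314280), 29 in AREG (chr4:74445086-74445135), 29 in TGFB2 (chr1:218345286-218345335) and 31 in CXCL8 (chr4:73740519-73740568), all on the plus strand. These genes spanned 254 ± 24.7 CPM for IGFBP4 to 69.2 ± 16.5 CPM for CXCL8, so the same letters stood before genes of several levels.

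Adhesion and membrane families were partly present. Integrins, the receptors for matrix, had 11 of 26 members detected (42.3%, beside 51% of protein-coding genes), led by ITGB1 at 567, 628, 764 and 823 CPM. ITGB5 (132 ± 34.3 CPM), ITGA3 (123 ± 22.8 CPM), ITGA2 (66.5 ± 9.23 CPM), ITGAE (51.6 ± 4.85 CPM), ITGAV (49.2 ± 2.61 CPM) and ITGA5 (39.4 ± 11.6 CPM) were among the others. ITGAL and ITGAX were at 0. Annexins, which bind membranes with calcium, had 10 of 13 detected (76.9%). ANXA2 led them at 1386, 1247, 1126 and 1359 CPM, with ANXA5 (297 ± 32.9 CPM), ANXA1 (253 ± 37.1 CPM) and ANXA6 (229 ± 54.5 CPM) next. S100 proteins had 8 of 19 detected (42.1%). S100A10, the partner of ANXA2, was at 849.9, 713, 645 and 628 CPM, S100A11 at 332 ± 90.2 CPM and S100A16 at 258 ± 41.2 CPM. S100A8, S100A9 and S100A7, known from inflamed skin and myeloid cells, were at 0. TMSB4X, which sequesters actin monomers, was at 1654, 1151, 1049.5 and 968 CPM and TMSB10 at 738, 769, 1119 and 889 CPM, with overlapping ranges. Genes used to mark stem-like breast cells were uneven: CD44 was high, CD24 near 0, PROCR at 33.3 ± 5.77 CPM, ALDH1A3 at 14.8 ± 8.16 CPM, ALDH1A1 at 0, 0, 0 and 4.94 CPM and PROM1 at 0.

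Most markers of other lineages were at 0 or low in replicates 1 to 3. Of 15 leukocyte genes none was detected, 5 lay between and 10 were at 0, PTPRC, the common leukocyte antigen CD45, and LYZ among them. CSF1R, the receptor of a macrophage growth factor and one of the 5, had a mean of 1.72 ± 2.38 CPM. Of 7 erythroid and platelet genes 6 were at 0, globins included, and PF4 was at 1.43 ± 1.79 CPM. Of 8 neural and melanocyte genes none was detected, 5 lay between, and MLANA, TYR and DCT were at 0. The 8 genes together summed to 6.66, 0.925, 15.1 and 8.65 CPM. Of 7 adipocyte and hepatocyte genes 5 were at 0, and SERPINA1 was at 3.84, 4.94, 3.42 and 13.2 CPM (4.06 ± 0.782 CPM without replicate 4). Of 9 fibroblast genes, COL1A1 and RGS5 (4.77 ± 2.59 CPM) were detected and COL1A2, COL3A1, DCN, LUM and PDGFRA were at 0. FAP was at 0, 0, 0 and 6.18 CPM. Of the 4 members of the 7-gene endothelial list that had counts, PECAM1, CDH5 and TEK had them in replicate 4 alone and KDR in replicate 1 alone.

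Variation between libraries depended on level. The median coefficient of variation was 47.4% for detected genes at 1 to 10 CPM, 26.2% at 10 to 100 CPM, 15.2% at 100 to 1000 CPM and 10.3% at 1000 CPM or more, against 22.1%, 9.95%, 4.17% and 1.26% from counting alone, so every class varied by more than counting error. Over all detected genes the common dispersion of edgeR was 0.0907, a biological coefficient of variation of 30.1%. The most even of the 3408 genes with a mean of at least 50 CPM were RPL37A, RPL8, RHOA, TMCO1, MRPS26, DDX3X, ACTB and EEF1B2. RHOA, a regulator of actin, was at 534, 523, 521 and 537 CPM. DDX3X, an RNA helicase, was at 242, 249, 249 and 242 CPM. Among the least even were PTP4A1, XAGE1B, U2AF1, U2AF1L5, HMGA2, TIMP3 and MT-ND6. HMGA2, a chromatin protein of embryonic and mesenchymal cells, was at 44.4, 41.9, 42.1 and 257 CPM, and its mean without replicate 4 was 42.8 ± 1.39 CPM.

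The counts of 3 of the least even genes are uncertain because each has a near-identical partner in the annotation. U2AF1, a splicing factor, was at 567, 418, 123 and 10.3 CPM, and its copy U2AF1L5 was at 13.5, 114, 465 and 612 CPM. Their sum was 581, 532, 587 and 623 CPM, a mean of 581 ± 37.3 CPM, so the split between them carried nearly all of the variation. XAGE1B, a cancer-testis antigen, was at 169, 0, 96.6 and 10.8 CPM, and with XAGE1A it summed to a mean of 417 ± 34.7 CPM. PTP4A1, a phosphatase, was at 0, 115, 141 and 49.4 CPM, and with the overlapping gene AL135905.2 it summed to 250 ± 57.9 CPM. The 2 partners were picked after their values were seen.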

How the data were processed

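The 4 untreated libraries were taken from a table of the whole series of estimated counts per gene as the authors deposited them. The submitters' processing notes name STAR, Salmon and GRCh38. Tool versions, the annotation, any use of molecular identifiers and strandedness: not given in the sources used here. Each count was divided by its library's total (2428489 to 4952111) to give CPM. Counts were rounded only for edgeR 4.0.16 and DESeq2 1.42.0 (R 4.3.3), which gave the common dispersion and the alternative library sizes. The dispersion step was checked on simulated counts. All else was computed in Python 3.11.15. Positions and gene types are from GENCODE v29 on GRCh38, where 34616 of 36601 identifiers were found, and sequences from RefSeq on GRCh38.p14. No groups were compared, and the one test was Dixon's for a library that stands apart. The 31 gene lists were chosen with earlier results of these data known. Genes are named by a rule: the 25 highest means, the 15 highest after ribosomal and mitochondrial genes, the 5 markers, the leading 4 members of each list, all members of the nuclear receptor, tyrosine kinase, secreted, epithelial, basal and mesenchymal lists by level class, and the 8 least and 8 most even genes with a mean of at least 50 CPM. Some genes that the rule takes are left out of the text and figures, while counts over lists include them. The alternatives were other thresholds, library sizes, gene sets and lengths, and leaving out each library.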

Additional observations from a re-analysis of the deposited data

Results flagged for a closer look

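Among the 113 genes whose 4 library values are given, 15 had a library so far from the other 3 that its gap to the nearest value exceeded the 95% limit of Dixon's test for 4 values. Of all detected genes, 555 (5.4%) had such a library, and only 4 of the 15 are detected genes. Chance gives about 1 such group in 20, but 11 of the 15 are genes that were not detected, where libraries at or near 0 make the ratio high, and some were given by library because replicate 4 stood apart. Of the 15, 14 had it in replicate 4. These were the endothelial genes PECAM1 (27.2 CPM), ERG (11.9 CPM) and ENG (27.2 CPM), the mesenchymal or stromal genes CDH2 (21.8 CPM), FOXC2 (9.47 CPM), SPARC (16.5 CPM), MMP2 (5.35 CPM), FAP (6.18 CPM) and HMGA2 (257 CPM), the receptors PGR (3.71 CPM) and EPHA2 (120.2 CPM), and EDN1 (70.0 CPM), ALDH1A1 (4.94 CPM) and SERPINA1 (13.2 CPM). CDH1 stood apart in replicate 3 at 3.08 CPM. The part that cells of another kind play in these values was not tested.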

How the results depend on the processing

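Of 64 alternative values for the main quantities, 61 stayed within 1.5 times a count or within 1 SD of a level. The other 3 were the genes that hold 50% of the counts, 841 without the mitochondrial and ribosomal genes against 374, the ribosomal share, 17.6% without mitochondrial genes in the totals against 15.7%, and the 25 most abundant genes, of which 15 remained per kb of longest transcript. With each library left out in turn, detected genes numbered 10415 to 10641, and the mean of EPCAM ran from 6.03 to 10.7 CPM and that of ERBB2 from 6.57 to 9.57 CPM. Leaving out 1 of 4 libraries cannot shift a mean by 1 SD, so no level could pass that limit under those settings. ESR1 had 0 counts in all 4 libraries, so its values among the 64 could only stay at 0 and show nothing about the settings. At a threshold of 5 CPM, 8 of 31 lists changed their count of detected members by over 1.5 times. The dispersion was 0.0746 by a moment estimator against 0.0907. No paired analysis was possible because no groups were compared. Depth limits genes under about 1 CPM, where 1 count in a library is worth 0.202 to 0.412 CPM. The labels do not say that the samples were separate cultures, and no DNA or protein was measured.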

Other observations

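Genes outside the lists and present in replicate 4 alone were picked after their values were seen. SPOCK1, a matrix proteoglycan, was at 61.8 CPM there and had 0 counts in the other 3 untreated libraries. RAB3B, a vesicle GTPase, was at 31.3 CPM, UCHL1, a deubiquitinase of neurons and some tumours, at 29.6 CPM, AMTN at 26.8 CPM, KCNMA1, a potassium channel, at 18.1 CPM and RNASE1, a secreted ribonuclease of vessel lining, at 16.9 CPM, each with 0 counts in the other 3. ICAM2, an adhesion protein of endothelial cells and leukocytes, was at 30.9 CPM in replicate 4 and at most 0.308 CPM in the other 3, and reached 9.2 CPM among the other 19 libraries of the series. ROBO4, which also counts as endothelial, was at 30.9 CPM in replicate 4 and at 34.7 CPM in another library of the series, so its level did not set replicate 4 apart. NEAT1, a nuclear long noncoding RNA, had a mean of 54.3 ± 13.5 CPM, and MALAT1 was at 2145 CPM. How well a start at the poly(A) tail captures these noncoding RNAs was not tested. Their CPM therefore cannot be compared as numbers of molecules.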
